A study of Mus musculus with 21 samples.

Results

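The genes described here belong to the integrated stress response and the unfolded protein response, in microglia sorted from the striatum of adult mice. They form a list of symbols grouped by known role, and were found in the deposited table through Ensembl identifiers without version. There are 34 of them among its 55487 genes. By role they are 5 sensors and regulators, 10 targets of the transcription factor ATF4, 13 chaperones and folding factors of the endoplasmic reticulum (ER) and 6 genes of ER-associated degradation (ERAD). The question was how the ATF4 targets compare with the ER chaperones across the groups. Microglia are the resident macrophages of the brain. All mice were male and 8 to 10 weeks old, and sorting kept live CD45-low cells that stained for CD11b and P2RY12, so a cell that had lost P2RY12 protein would not have been collected. The 4 groups were offspring of control dams given saline (6 libraries) or lipopolysaccharide (LPS, 5 libraries), and offspring of dams with maternal immune activation (MIA) given saline (5) or LPS (3). LPS, a bacterial cell wall component that signals through Toll-like receptor 4, was injected intraperitoneally at 4500 endotoxin units per gram of body weight, 18 hours before collection, and the labels do not name the agent that activated the dams. These 19 libraries all carry the label batch 1. A further MIA LPS library is the one library of batch 2, so batch and library cannot be told apart for it. The batch term takes it out of every difference between groups, but it still entered the filter on low counts and the scaling. An MIA saline library that its submitters titled excluded was left out.

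The integrated stress response begins when a kinase that senses stress phosphorylates the translation factor eIF2. General protein synthesis then slows while the mRNA of ATF4 is translated better, and ATF4 switches on genes for amino acid synthesis and uptake, tRNA charging and, under lasting stress, cell death. The unfolded protein response is the answer of the ER to misfolded protein and has 3 sensors. PERK (encoded by Eif2ak3) is one of the eIF2 kinases, IRE1 (Ern1) splices the mRNA of the transcription factor XBP1, and ATF6 is itself a membrane-bound transcription factor. XBP1 and ATF6 act on the chaperone and ERAD genes. Splicing of Xbp1, cleavage of ATF6 and the amount of ATF4 protein are not seen in gene counts.

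ATF4 and the ER stress factors are known to act through different short promoter motifs. Some of the sites are shown so that the elements of chaperone genes can be set beside those of ATF4 targets. RefSeq promoter windows of GRCm38.p6, from 250 bases before to 50 after a gene's start, were matched for 30 of the 34 genes. Atf6, Derl1, Hyou1 and Manf had no window. A listed gene was counted if any of its windows held the motif, while shares of all windows were counted by window. The ER stress element (ERSE), searched on both strands as CCAAT, 9 bases of any kind and CCACG, was found in 7 of 11 chaperone genes and 2 of 5 ERAD genes, in 0 of 10 ATF4 targets and 0 of 4 regulators, and in 0.119% of all 32851 windows. Its CCACG part alone was found in 10 of 11 chaperone genes, 5 of 5 ERAD genes, 8 of 10 ATF4 targets and 2 of 4 regulators, against 32.8% of all windows, so this short part was frequent in both chaperone genes and ATF4 targets. The shorter element ERSE-II (ATTGG, any base, CCACG), which shares that part, was found in Herpud1 and in 0.037% of windows. The composite element bound by ATF4 with C/EBP partners (CARE), TGATGNAA, was found in 3 of 10 ATF4 targets (Chac1, Trib3 and Asns) and in Herpud1, against 3.97% of all windows. The core of the UPR element, TGACGTGG, was found in no listed gene and in 0.676% of windows. A match is a stretch of letters and not a measured binding site. In these sites the motif is in capitals, the strand is the one on which it reads as written, and 5 bases flank it on each side.
Hspa5 ERSE, chr2:34772020-34772048, plus strand: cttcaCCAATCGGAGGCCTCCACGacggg
Hsp90b1 ERSE, chr10:86705633-86705661, minus strand: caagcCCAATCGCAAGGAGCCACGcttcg
Calr ERSE, chr8:84847070-84847098, plus strand: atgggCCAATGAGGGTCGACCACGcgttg
Pdia6 ERSE, chr12:17266486-17266514, plus strand: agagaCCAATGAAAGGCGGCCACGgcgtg
Creld2 ERSE, chr15:88819515-88819543, minus strand: gtggaCCAATTGAGGCTCGCCACGagaag
Herpud1 ERSE-II, chr8:94386372-94386392, plus strand: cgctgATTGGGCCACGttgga
Herpud1 CARE, chr8:94386312-94386329, minus strand: cgggcTGATGCAAcccgc
Chac1 CARE, chr2:119351044-119351061, minus strand: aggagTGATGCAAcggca
Trib3 CARE, chr2:152344034-152344051, plus strand: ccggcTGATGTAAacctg
Asns CARE, chr6:7693220-7693237, minus strand: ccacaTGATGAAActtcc
The Hspa5 element lies 65 to 47 bases before the gene's start, and the CARE of Asns lies 23 to 16 bases before it. Herpud1, an ERAD gene, has both kinds of element in its window.

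Total counts per library ran from 9845771 to 18990003 in the 19 libraries, and a single ribosomal RNA gene held 43.0% to 53.8% of them. The labels call the cells microglia, and all 12 microglial markers checked had counts in every library. LPS went with large shifts in such lists. The summed level of the microglial markers was 12805 to 17995 CPM (counts per 1000000, scaled here by total count alone) after saline and 4932 to 7084 CPM after LPS, with 9 of 12 markers called lower in both maternal groups. Sums over 6 monocyte markers were 3.15 to 6.79 CPM after saline and 34.8 to 77.3 CPM after LPS, and sums over 8 neutrophil markers were 0 to 19.9 CPM and 32.9 to 116 CPM. The part of these shifts in the results was not tested, and in a bulk sample fewer cells of a type and less RNA per cell cannot be told apart.

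Levels of single genes are in CPM with TMM-scaled library sizes, which correct for library composition. Levels of different genes are compared per kilobase of exon, averaged over the 19 libraries. Hspa5, which encodes BiP, the chief ER chaperone, led with 157 CPM per kb, followed by Hsp90b1 (GRP94) with 119 and Pdia3, a disulfide isomerase, with 97.7. Atf4 itself stood at 66.0 CPM per kb and Xbp1 at 59.3. At the other end were Trib3, Derl3, Atf5, Chac1 and Asns, each under 1 CPM per kb as a mean over saline and LPS libraries, whose order depended on the group. In control saline libraries Trib3 was at 0.00886 CPM per kb, Chac1 at 0.0690, Derl3 at 0.134, Asns at 0.164 and Atf5 at 0.376. In control LPS libraries Derl3 was at 0.131 CPM per kb, Trib3 at 0.297, Atf5 at 0.423, Chac1 at 0.940 and Asns at 1.251. Trib3, a pseudokinase that restrains ATF4 signalling, and Derl3, a membrane protein of ERAD, were too sparse to pass the filter on low counts, so 32 of the 34 genes were tested. A second annotated row with the symbol Ddit3 held no count in any library and was not used.

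In offspring of control dams, Atf4 and part of its target set were higher after LPS, while 12 of 13 chaperones did not pass the test. Of the 32 genes tested, 9 were higher and 0 lower after LPS (edgeR, Benjamini-Hochberg adjusted over 14741 genes), where 23.3% of all genes tested were higher and 21.3% lower. The share called higher therefore stood near the background. Called higher were 3 of 5 regulators, 5 of 9 ATF4 targets, 1 of 13 chaperones and 0 of 5 ERAD genes. One of these targets, Chac1, passed the filter on low counts only through its LPS libraries. Its call was thus favoured in advance and adds no support to the count. The median log2 fold change was 1.00 over the ATF4 targets, 0.10 over the chaperones, 0.15 over the ERAD genes and -0.00 over all genes tested. No p is given for these medians, since the genes of a set are not replicates.

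**Figure D1:**
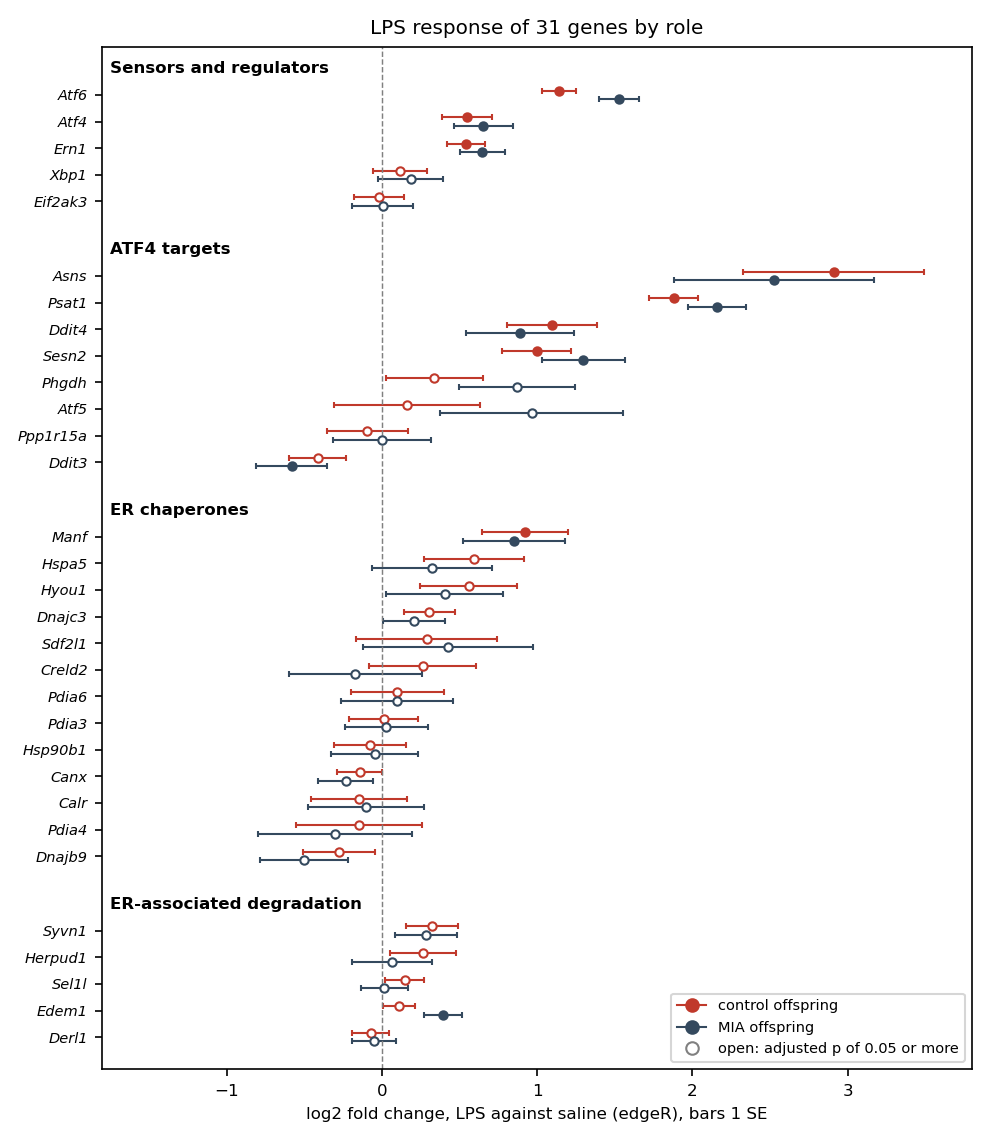
Log2 fold change of LPS against saline with 1 standard error, for 31 genes grouped by role, in control offspring (red) and MIA offspring (dark grey-blue). Filled points were called by edgeR at an adjusted p under 0.05. Chac1 is left out because its saline groups held 12 and 1 counts.

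Among the sensors and regulators, Atf6 showed the largest change. Its level after saline was 57.1 to 67.6 CPM, with a median of 62.8, in the control libraries, and after LPS it was 119.7, 157, 122, 140.3 and 151 CPM in replicates 1 to 5. Every LPS library was above every saline library, and the log2 fold change was 1.14 ± 0.11 (SE, adjusted p = 4.40e-09, edgeR). Ern1, the gene of the sensor IRE1, was at 20.05 to 28.1 CPM (median 24.5) after saline and at 32.1, 35.7, 34.1, 38.3 and 36.9 CPM after LPS, again with no overlap, a log2 fold change of 0.54 ± 0.12 (SE, adjusted p = 6.07e-04, edgeR). Atf4 was at 98.0 to 155 CPM (median 127) after saline and at 189.6, 171, 184, 206 and 170.4 CPM after LPS, also without overlap, with a log2 fold change of 0.55 ± 0.16 (SE, adjusted p = 0.00695, edgeR). Without the batch term, which then counts the batch 2 library as an ordinary one, the Atf4 call was lost (adjusted p = 0.0570, edgeR). The remaining sensors and regulators did not pass. Eif2ak3, the gene of PERK, had mean levels of 15.5 ± 2.09 CPM (SD, n = 6) after saline and 15.3 ± 3.77 CPM (SD, n = 5) after LPS. For Xbp1 the means were 182 ± 29.5 and 198 ± 53.4 CPM, and the 95% interval of its log2 fold change ran from -0.25 to 0.49.

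The 5 ATF4 targets that rose were Psat1, Sesn2, Ddit4, Asns and Chac1. Psat1 encodes an enzyme of serine synthesis. It was at 10.2 to 14.0 CPM, with a median of 12.2, after saline and at 60.6, 33.1, 49.4, 44.5 and 34.7 CPM after LPS, so that the lowest LPS library was above 2 times the highest saline library. Its log2 fold change was 1.88 ± 0.16 (SE, adjusted p = 3.97e-10, edgeR). Psat1, Ern1, Atf6 and Atf4 were the 4 of 32 genes whose control groups did not overlap with LPS higher, against 15.1% of all genes tested (28.9% in either direction). Sesn2, which encodes a stress-induced inhibitor of mTORC1, was at 5.35 to 9.82 CPM (median 6.42) after saline and at 18.2, 12.7, 17.4, 10.3 and 9.38 CPM after LPS. Replicate 5 lay within the saline range, and the log2 fold change was 1.00 ± 0.22 (SE, adjusted p = 6.56e-04, edgeR). Ddit4, whose product REDD1 also restrains mTORC1, was at 10.9 to 23.99 CPM (median 16.3) after saline and at 35.8, 35.2, 18.4, 31.3 and 51.0 CPM after LPS. Here replicate 3 alone fell inside the saline range, and the log2 fold change was 1.09 ± 0.29 (SE, adjusted p = 0.00429, edgeR).

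Asns, Chac1 and Trib3, the 3 targets with a CARE in the window, were sparse after saline and are better read as counts. Asns encodes asparagine synthetase and had 39 counts over the 6 saline libraries and 218 over the 5 LPS libraries, a ratio of counts per total of 7.02 (exact 95% interval 4.98 to 10.2, for counting error alone). By library it ran from 0.0668 to 0.852 CPM (median 0.421) after saline and was 3.79, 0.842, 9.34, 2.01 and 1.12 CPM after LPS, so replicate 2 overlapped and replicate 3 stood highest. The log2 fold change of Asns was 2.91 ± 0.58 (SE, adjusted p = 2.19e-04, edgeR), and 2.10 without replicate 3, still called. Chac1 encodes an enzyme that degrades glutathione and had 12 counts after saline, all in replicate 1, and 103 after LPS. Its ratio was 10.8 (interval 5.92 to 21.6), and its log2 fold change of 3.51 (adjusted p = 0.00555, edgeR) was 7.40 without control saline replicate 1 and was not called by DESeq2 (adjusted p = 0.0795). Trib3 had 2 counts after saline and 45 after LPS, a ratio of 28.3 (7.38 to 241). It was listed at 0 in LPS replicate 2, the library that was also lowest for Asns, Chac1 and Psat1.

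Not every ATF4 target moved that way. Ddit3 encodes CHOP, the transcription factor that links the response to cell death. It was at 19.8 to 30.2 CPM (median 28.4) after saline and at 29.9, 16.6, 17.4, 22.6 and 15.6 CPM after LPS, so that 3 of 5 LPS libraries were below every saline library. With a log2 fold change of -0.41 ± 0.19 (SE) it was not called (adjusted p = 0.0723, edgeR). It was called lower in several other settings, at -0.60 without LPS replicate 1 (adjusted p = 0.00994) and -0.49 without saline replicate 3 (0.0382), both by edgeR. Ppp1r15a encodes GADD34, the subunit that directs dephosphorylation of eIF2 and so ends the response. Its means were 96.4 ± 25.2 CPM (SD, n = 6) and 90.4 ± 32.4 CPM (SD, n = 5), and the interval of its log2 fold change ran from -0.65 to 0.47. Phgdh, the enzyme before Psat1 in serine synthesis, had means of 38.1 ± 13.0 and 48.2 ± 15.5 CPM and was not called (adjusted p = 0.412, edgeR). Astrocytes also express Phgdh strongly, and the summed level of 8 astrocyte markers was 157 to 310.2 CPM after saline and 111 to 146 CPM after LPS in these groups. The markers did not go one way: of 7 tested, Slc1a3 was called lower (log2 fold change -1.03 in control offspring), Gfap was called higher (3.21), and the median log2 fold change was 0.11 in control and 0.36 in MIA offspring. The part of astrocyte RNA in the Phgdh values was not tested. Atf5, a transcription factor related to ATF4, was at most at 1.34 CPM in the control libraries and was not called.

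**Figure D2:**
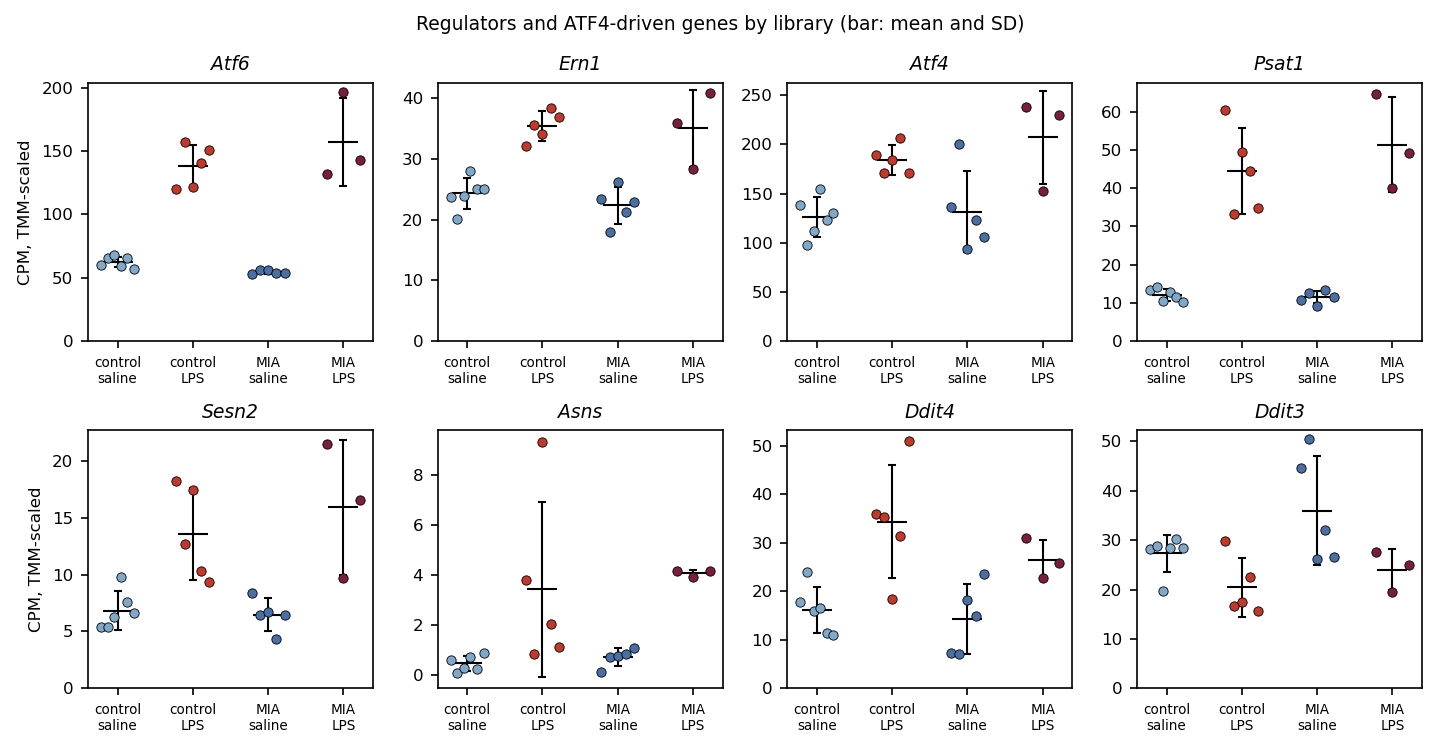
TMM-scaled CPM of 3 regulators and 5 ATF4 targets in each of 19 libraries, with the mean and SD of each group. Atf6 and Psat1 separate LPS from saline in both maternal groups, while Ddit3 reaches its 2 highest values, 44.7 and 50.5 CPM, after saline.

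Of the chaperones in control offspring, Manf alone was called. Manf encodes a small secreted ER factor. It was at 28.1 to 52.0 CPM (median 40.3) after saline and at 96.8, 40.0, 128, 59.6 and 47.8 CPM after LPS, with replicates 2 and 5 inside the saline range. The log2 fold change was 0.92 ± 0.28 (SE, adjusted p = 0.0107, edgeR), and 0.61 without LPS replicate 3 (adjusted p = 0.0485). Hspa5 had a log2 fold change of 0.59 and Hyou1, a large co-chaperone of BiP, one of 0.56, neither called (adjusted p = 0.146 and 0.164, edgeR). Their intervals were wide, from -0.09 to 1.28 and from -0.11 to 1.23. The remaining 10 chaperone genes had log2 fold changes between -0.27 (Dnajb9, a J-domain partner of BiP) and 0.31 (Dnajc3, another such partner). Leaving out LPS replicate 1 called Dnajb9 lower (-0.56, adjusted p = 0.0277, edgeR), and leaving out LPS replicate 3 called Canx, the lectin chaperone calnexin, lower (-0.35, adjusted p = 0.0292, edgeR). The 5 ERAD genes tested had log2 fold changes between -0.07 (Derl1, a channel protein) and 0.32 (Syvn1, the ubiquitin ligase HRD1), none called.

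In offspring of MIA dams calls were again made mostly among regulators and ATF4 targets. Of 32 genes, 10 were called higher and 1 lower after LPS (edgeR), where 20.8% of all genes tested were higher and 18.3% lower. Called higher were 3 of 5 regulators, 5 of 9 ATF4 targets, 1 of 13 chaperones and 1 of 5 ERAD genes, and 1 ATF4 target was called lower. Chac1, which entered the test only through LPS libraries, was again among the targets called higher. The median log2 fold change was 0.96 over the ATF4 targets, 0.03 over the chaperones, 0.06 over the ERAD genes and 0.02 over all genes. The ATF4 target median was the value of Atf5 itself, with 25 counts after saline and 29 after LPS. Its log2 fold change of 0.96 ± 0.59 (SE) was not called (adjusted p = 0.207, edgeR). The group had 3 LPS libraries, and 5 of the 11 calls were lost when 1 library was left out.

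Atf6 was at 53.1, 56.2, 55.8, 53.6 and 54.0 CPM in MIA saline replicates 1 to 5 and at 132, 197 and 143 CPM after LPS. Every LPS value is above 2 times the highest saline value, with a log2 fold change of 1.53 ± 0.13 (SE, adjusted p = 8.96e-10, edgeR). Ern1 was at 23.5, 18.0, 26.2, 21.3 and 23.0 CPM after saline and at 35.9, 28.4 and 40.9 CPM after LPS, a log2 fold change of 0.65 ± 0.14 (SE, adjusted p = 7.55e-04, edgeR). Atf4 was at 136, 199.97, 93.7, 123 and 105 CPM after saline and at 238, 153 and 230.2 CPM after LPS. The Atf4 groups overlapped, with MIA saline replicate 2 high and LPS replicate 2 low, and the log2 fold change of 0.65 ± 0.19 (SE, adjusted p = 0.00803, edgeR) was not called without LPS replicate 1 (0.54, adjusted p = 0.0526) or without the batch term (0.41, adjusted p = 0.190).

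Psat1 was at 10.9, 12.6, 9.18, 13.3 and 11.5 CPM after saline and at 64.8, 40.1 and 49.1 CPM after LPS in MIA offspring. All LPS libraries were far above all saline libraries, with a log2 fold change of 2.16 ± 0.19 (SE, adjusted p = 1.06e-09, edgeR). Sesn2 was at 8.41, 6.43, 6.68, 4.34 and 6.46 CPM and then at 21.5, 9.69 and 16.5 CPM, a log2 fold change of 1.30 ± 0.26 (SE, adjusted p = 2.96e-04, edgeR). Asns was at 0.0877, 0.723, 0.743, 0.826 and 1.07 CPM and then at 4.14, 3.91 and 4.16 CPM. The LPS libraries of Asns were nearly equal here, unlike those of control offspring, and its log2 fold change was 2.52 ± 0.65 (SE, adjusted p = 0.00289, edgeR). Sesn2, Asns, Psat1, Ern1, Atf6 and the ERAD gene Edem1 were the 6 genes whose MIA groups did not overlap with LPS higher, against 18.5% of all genes tested (36.5% in either direction). Edem1, a lectin that passes misfolded glycoproteins on to degradation, went from 305, 279, 287, 287 and 283 CPM to 385, 356 and 396 CPM. Its log2 fold change of 0.40 ± 0.12 (SE, adjusted p = 0.0110, edgeR) was not called with upper quartile scaling (0.30, adjusted p = 0.0515) or without the batch term (0.19, adjusted p = 0.396).

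The remaining ATF4 targets of MIA offspring were sparse or close to the threshold. Chac1 had 1 count over the 5 MIA saline libraries and 65 over the 3 LPS libraries, a ratio of 99.1 (exact 95% interval 17.2 to 3972). By library Chac1 was at 0.930, 0 and 3.57 CPM after LPS, so LPS replicate 2 held no count. Its log2 fold change of 6.02 (adjusted p = 0.00207, edgeR) was 7.40 without MIA saline replicate 5, and was not called without LPS replicate 3 (4.30, adjusted p = 0.0502) or by limma-voom with the label ID number as a block (3.38, adjusted p = 0.0764). Trib3 had 1 count and then 11, a ratio of 16.8 (2.44 to 722), again with 0 in LPS replicate 2. Ddit4 was at 7.19, 7.15, 18.2, 14.9 and 23.6 CPM and then at 30.9, 22.8 and 25.8 CPM, with a log2 fold change of 0.89 (adjusted p = 0.0488, edgeR) that was lost in 14 of 20 fits leaving out 1 library, those without control LPS replicates 1, 2 and 4, control saline replicates 1, 3, 4 and 5, any MIA LPS library, or MIA saline replicates 1, 2 and 4. Manf was at 51.9, 45.8, 31.7, 50.8 and 39.2 CPM and then at 111, 50.3 and 75.8 CPM, a log2 fold change of 0.85 (adjusted p = 0.0465, edgeR). The Manf call was lost in 9 of 20 such fits, those without control saline replicates 4 and 6, MIA LPS replicates 1, 3 and 4, or MIA saline replicates 2 to 5. The log2 fold change of Manf was 0.52 without MIA LPS replicate 1. Ddit3 was at 44.7, 50.5, 26.1, 32.01 and 26.6 CPM and then at 27.6, 19.5 and 25.0 CPM. It was called lower at -0.58 (adjusted p = 0.0429, edgeR), and not without control saline replicate 1, MIA LPS replicates 2 or 3, or MIA saline replicates 1 or 2, where its log2 fold change ran from -0.61 to -0.43. Phgdh, at 0.87 (adjusted p = 0.0746, edgeR), was called higher without MIA LPS replicate 2 (1.16), MIA saline replicate 1 (1.04) or MIA saline replicate 2 (1.09). The labels give libraries an ID number whose meaning they do not state, shared by MIA LPS replicate 1 with saline replicates 1 and 2, by LPS replicate 2 with saline replicates 3 and 4, and by LPS replicate 3 with saline replicate 5. Phgdh was at 80.1 CPM against 43.8 and 48.3 CPM in the first of these sets, at 31.97 against 18.3 and 20.1 CPM in the second, and at 57.0 against 23.8 CPM in the last. Control libraries that share an ID number went both ways. Control LPS replicate 2 was at 52.5 against 47.8 CPM, and replicate 3 at 72.9 against 22.9 and 30.9 CPM. Control LPS replicates 4 and 5 were lower, at 37.5 against 55.0 CPM and 33.9 against 45.2 CPM. With the ID number as a block, limma-voom called Phgdh higher in MIA offspring (0.91, adjusted p = 0.0463). In MIA LPS replicate 2, where Phgdh was lowest at 31.97 CPM against 80.1 and 57.0 CPM, the astrocyte sum was the highest of the 8 LPS libraries at 236 CPM.

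No chaperone other than Manf was called in MIA offspring. Calnexin (Canx) was the 1 gene of 32 whose MIA LPS libraries (261, 231 and 270.7 CPM) all lay below its saline libraries (304, 315, 271.1, 299.7 and 304 CPM), where 18.0% of all genes tested did. At -0.23 ± 0.18 (SE) the Canx difference was not called (adjusted p = 0.314, edgeR). Hspa5 had a log2 fold change of 0.32 with an interval of -0.50 to 1.14, and Pdia4, a disulfide isomerase, one of -0.30 with an interval of -1.35 to 0.75.

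The LPS responses of MIA and control offspring did not differ by test in any of the 32 genes. Of all 14741 genes, 0 were called for the difference of responses (percent called 0), with 491 at an unadjusted p under 0.05, by edgeR. DESeq2 called 0 and limma-voom with the ID number of the labels as a block called 1. The regulator with the largest difference was Atf6, whose response was higher in MIA by 0.39 ± 0.17 log2 units (SE, unadjusted p = 0.0347, adjusted p = 0.99992, edgeR). For Psat1 the difference was 0.28, with an interval of -0.25 to 0.80, and for Hspa5 it was -0.27, with an interval of -1.35 to 0.81. The interval of Hspa5 thus includes 2-fold differences of response, while that of Canx was narrower, from -0.58 to 0.39. Over roles, the median difference was 0.28 for the ATF4 targets, -0.09 for the chaperones and 0.02 for all genes.

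After saline, MIA and control offspring had 0 of 32 genes called (percent called 0 of all genes by edgeR, 415 with an unadjusted p under 0.05, and 6 genes called by DESeq2, none of them among the 34). Atf6 and Edem1 lay lower in all 5 MIA libraries than in all 6 control libraries, an arrangement found for 0.224% of all genes tested (0.176% lay higher). Atf6 was at 53.1 to 56.2 CPM in MIA and 57.1 to 67.6 CPM in control offspring, a log2 difference of -0.20 ± 0.11 (SE, unadjusted p = 0.0876, edgeR). Edem1 was at 279 to 305 CPM and 314 to 359.5 CPM, a log2 difference of -0.18 ± 0.10 (SE, unadjusted p = 0.0851, edgeR). In both genes the gap between the groups was smaller than the spread of the control libraries. Ddit3 went the other way, with 44.7 and 50.5 CPM in MIA saline replicates 1 and 2 against 30.2 CPM at most in control libraries, a log2 difference of 0.40 ± 0.18 (SE, unadjusted p = 0.0397, adjusted p = 1.00, edgeR). After LPS, 0 of 32 genes were called between MIA and control offspring (percent called 0 of all genes by edgeR, 825 with an unadjusted p under 0.05, and 0 by DESeq2), and 0 of 32 genes had groups that did not overlap, where 1.28% of all genes tested lay higher and 1.40% lower in MIA (2.68% in either direction).

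**Figure D3:**
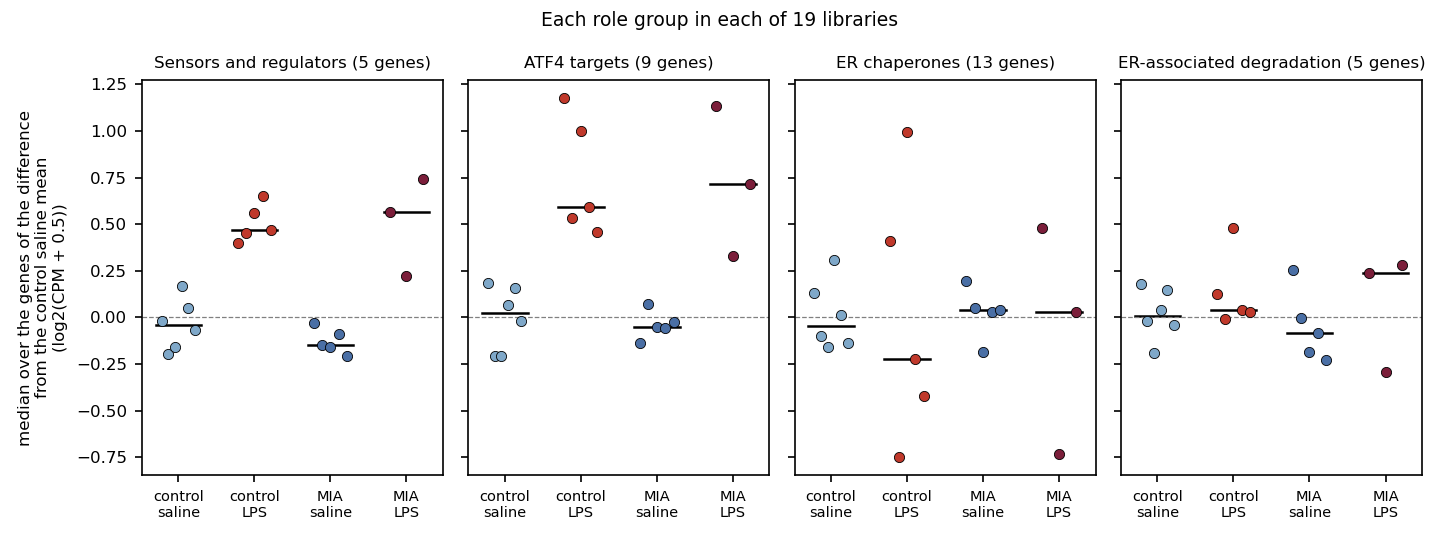
Median over the genes of each role of the difference from the control saline mean, in log2(CPM + 0.5), for each of 19 libraries, with the group median as a bar. ATF4 targets sit at 0.33 or above in all 8 LPS libraries, while the chaperone medians of LPS libraries run from -0.75 to 1.00 on both sides of the saline libraries.

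After LPS most chaperones lay above the saline range in some libraries and below it in others. Manf and Dnajb9 were the exceptions. Of 8 LPS libraries, Manf had 5 above and 0 below the range, and Dnajb9 had 0 above and 3 below. BiP (Hspa5) was at 405 to 795 CPM in the 11 saline libraries. After LPS it was at 1094, 384, 1370.4, 660.5 and 378 CPM in control replicates 1 to 5 and at 1148, 381 and 897 CPM in MIA replicates 1 to 3. Of the 8 LPS libraries, 4 were thus above every saline library and 3 below every one. GRP94 (Hsp90b1), at 414 to 599 CPM after saline, was at 531, 287, 813, 396 and 283 CPM and at 660.3, 264 and 493.07 CPM after LPS. The calcium-binding chaperone calreticulin (Calr), at 127 to 199 CPM after saline, was at 188, 61.3, 291, 116 and 77.8 CPM and at 207, 85.5 and 158 CPM. The 4 highest libraries were the same in these 3 genes.

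Hyou1, at 39.2 to 61.4 CPM after saline, was at 108, 36.8, 153, 48.4 and 39.3 CPM in control and 92.2, 41.1 and 78.8 CPM in MIA libraries after LPS. Creld2, a folding factor of the ER lumen, was at 6.75 to 18.1 CPM after saline and at 17.9, 6.43, 31.4, 12.5 and 9.70 CPM and 14.4, 4.48 and 14.1 CPM after LPS. Both genes again had 4 higher and 4 lower LPS libraries, with control replicate 3 highest. Herpud1, which recruits substrates to the HRD1 ligase, was at 103 to 202 CPM after saline and at 194, 103, 203, 135 and 109.7 CPM and 194, 95.1 and 161 CPM after LPS. Syvn1, the gene of HRD1 itself, was at 31.3 to 43.7 CPM after saline and at 59.4, 34.9, 56.9, 33.8 and 35.8 CPM and 58.3, 28.6 and 50.1 CPM after LPS. In Syvn1 the 4 higher LPS libraries were above every saline library, and without MIA LPS replicate 2 it was called higher in MIA offspring (0.53, adjusted p = 0.0243, edgeR). Xbp1, the regulator upstream of many of these genes, was at 144 to 231 CPM after saline and at 209.7, 143, 274, 212 and 150.2 CPM and 267, 143 and 230.3 CPM after LPS.

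That order held for the whole role. In all 13 chaperone genes the 4 highest LPS libraries were control replicates 1 and 3 and MIA replicates 1 and 3, an order seen in 3.91% of the 14741 genes tested. Control LPS replicate 3 was the highest in 12 of 13, and control LPS replicate 1 in Dnajb9. MIA LPS replicate 2 was the lowest in 7 of 13, control LPS replicate 2 in 4 and control LPS replicate 5 in 2. Control LPS replicate 3 exceeded all 11 saline libraries in 12 chaperone genes, MIA LPS replicate 1 in 9, control LPS replicate 1 in 6 and MIA LPS replicate 3 in 4. MIA LPS replicate 2 was below all saline libraries in 11, control LPS replicate 2 in 10, control LPS replicate 5 in 7 and control LPS replicate 4 in 5. The share of all genes beyond the saline range was not counted for single libraries, so these counts cannot be set against a background. This order was noticed in the values and was not tested.

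**Figure D4:**
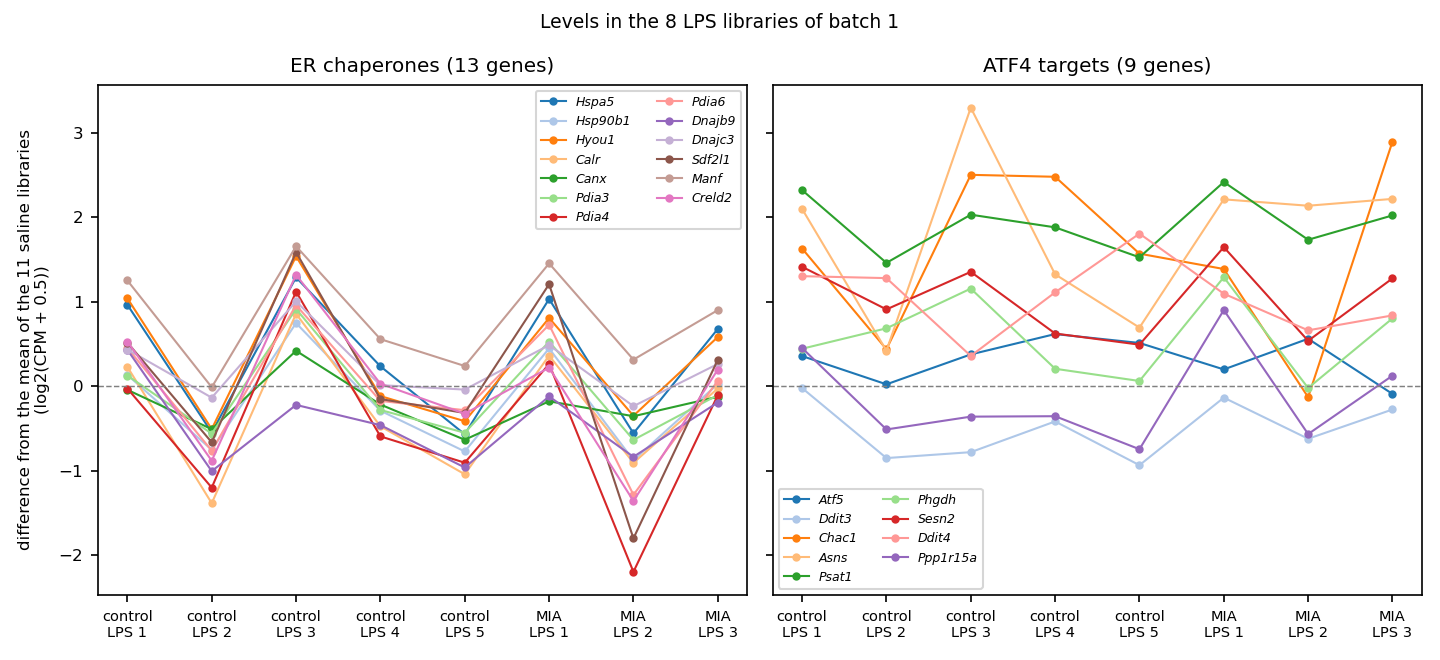
Difference from the mean of the 11 saline libraries, in log2(CPM + 0.5), in each of the 8 LPS libraries, for 13 ER chaperone genes and 9 ATF4 targets. Lines join the values of a gene and imply no order of libraries. The chaperone lines run nearly in parallel, high in control LPS 1 and 3 and in MIA LPS 1 and 3, while the ATF4 target lines cross.

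The spread between libraries was larger after LPS in all 13 chaperone genes, where 65.4% of all genes tested had a larger SD after LPS. The SD was taken in log2(CPM + 0.5) about the mean of each maternal group. It was over 2 times larger in 11 of 13 chaperone genes, against 13.9% of all genes, with Dnajb9 (1.64 times) and Manf (1.92 times) below. The median SD of the chaperones was 0.23 after saline and 0.81 after LPS, a median ratio of 2.98, against a ratio of 1.46 for the ATF4 targets and 1.195 for all genes. The widest ranges among LPS libraries belonged to Sdf2l1, a partner of the J-domain proteins, and Pdia4. Sdf2l1 ran from 12.8 CPM in MIA LPS replicate 2 to 139 CPM in control LPS replicate 3, a ratio of 10.8, and Pdia4 from 13.5 to 139 CPM in the same libraries, a ratio of 10.3. After saline the corresponding ratios were 2.29 and 1.65.

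**Figure D5:**
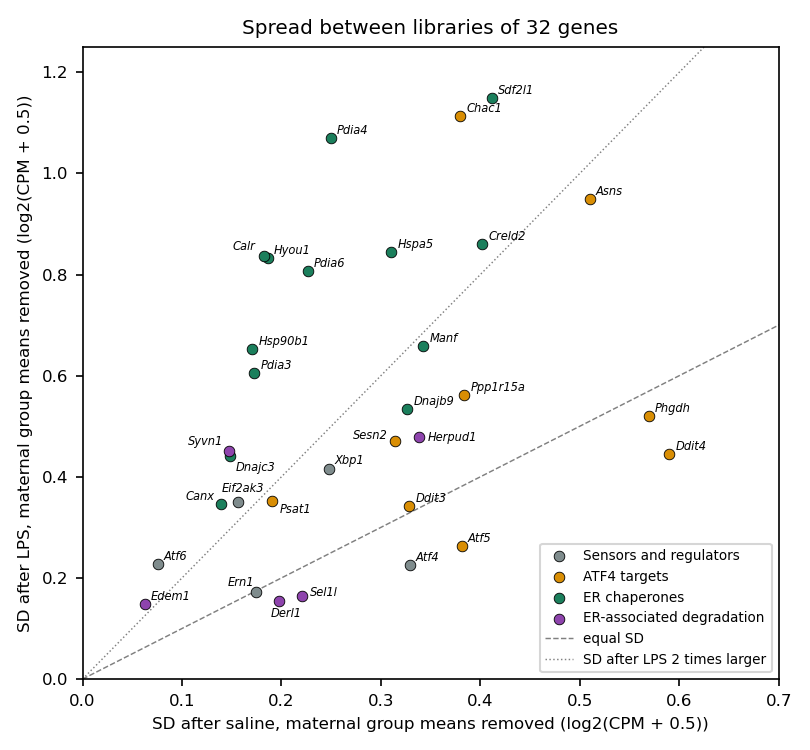
SD between libraries, about maternal group means, after saline (x axis) and after LPS (y axis) in log2(CPM + 0.5) for 32 genes, coloured by role. Chaperones lie above the line of equal SD in all 13 cases and above the line of a 2 times larger SD in 11, while Atf4 (0.33 and 0.23) lies below.

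The ATF4 targets shared the order in part. Psat1 and Sesn2 had the same 4 highest LPS libraries, as did Herpud1 and Syvn1 of the 5 ERAD genes tested. The ATF4 target medians of these 4 libraries were 1.18, 1.14, 1.00 and 0.71 above the control saline mean on the log2 scale, and those of the other 4 LPS libraries 0.33 to 0.59. In contrast to the chaperones, the ATF4 target median of every LPS library of batch 1 was above that of every saline library, the highest of which was 0.18. Among the LPS libraries of batch 1, the 3 highest values of Atf6 (197, 157 and 151 CPM) were in MIA replicate 2 and control replicates 2 and 5, where the chaperones were low, and the next (143 CPM) was in MIA replicate 3. The LPS library of batch 2, outside the comparisons, had an ATF4 target median of -0.21 and Atf6 at 178 CPM. That median is the value of Chac1 at 0 counts and does not place the targets at the saline level. The targets went both ways there. Phgdh (149 CPM) and Ddit4 (68.2 CPM) were above all 19 libraries, while Atf5, Ddit3, Asns and Ppp1r15a were below them all.

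Some technical and cell type values also differed among the LPS libraries. Control LPS replicate 3 had the lowest total of the 19 libraries (9845771 counts), the highest border macrophage sum of the 8 LPS libraries (45.4 CPM over 6 markers) and their lowest sum over 21 immediate early and dissociation genes (4032 CPM). Control LPS replicate 1, also high in chaperones, had the highest such sum of the 8 (8253 CPM) and a total of 18139513 counts. MIA LPS replicate 2 had the highest oligodendrocyte sum (94.2 CPM over 8 markers, against 30.98 to 53.6 CPM in the others) besides its astrocyte sum. The monocyte sums of control LPS replicate 2 and MIA LPS replicate 2 were the 2 lowest of the 8, at 40.6 and 34.8 CPM. Of 12 B, plasma and T cell markers, 6 had no count in any of the 19 libraries, Igkc and Mzb1 among them. The sum over that list was 55.9 to 95.1 CPM after saline and 13.7 to 21.4 CPM after LPS. In each library 8 to 11 of the 12 markers were at 0, so this sum rested on few genes and does not stand for the list. Only 1 of the 12 passed the filter on low counts, and it was called lower (log2 fold change -1.96 in control and -2.06 in MIA offspring). The part of any of these values in the spread was not tested. Leaving out control LPS replicate 3 and MIA LPS replicate 2 together, chosen after seeing the values, gave 1 of 13 chaperones called higher in control offspring and 3 in MIA offspring (Manf, Dnajc3 and Sdf2l1), while Pdia4 (-0.69) and Canx (-0.32) were called lower in control offspring.

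Other genes of the pathways, from 7 lists of 135 genes that share no gene with the 34, were tested in the same fit. Of 130 tested, 69 were higher and 7 lower after LPS in control offspring, and 65 and 5 in MIA offspring. Of all genes tested, 23.3% and 20.8% were higher, and 21.3% and 18.3% lower. Cytosolic tRNA synthetases, some of which ATF4 is known to activate, were higher in 14 of 20 genes in control and 15 of 20 in MIA offspring, and lower in none. Vars, the valine enzyme, rose from 24.7 ± 3.55 to 73.0 ± 7.40 CPM in control offspring (SD, n = 6 and 5), a log2 fold change of 1.56 (adjusted p = 1.45e-10, edgeR). Further ATF4 targets were higher in 12 of 18 genes in both maternal groups, and lower in 2 and 1. Slc7a11, the cystine transporter, rose from 1.56 ± 0.70 to 130.1 ± 40.8 CPM in control offspring, a log2 fold change of 6.38, and by 6.63 in MIA offspring (adjusted p = 2.25e-10 and 1.36e-09, edgeR). Eif4ebp1, a repressor of cap-dependent translation, rose by 1.93 and 1.95. Cebpg, a dimer partner of ATF4, was lower in both, with log2 fold changes of -0.61 and -0.75 (adjusted p = 4.82e-04 and 5.99e-04, edgeR).

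The counts of these lists stand against 23.3% of all genes tested higher and 21.3% lower in control offspring. In MIA offspring the shares were 20.8% and 18.3%. Upstream of ATF4, a list held 3 eIF2 kinases, the phosphatase subunit gene Ppp1r15b, the eIF2 subunit gene Eif2s1 and 5 subunits of eIF2B. The last is the exchange factor that phosphorylated eIF2 inhibits. This list was higher in 6 of 10 genes in control and 7 of 10 in MIA offspring, and lower in none. Eif2ak2 encodes PKR, the eIF2 kinase activated by double-stranded RNA and induced by interferon. It rose by 0.96 and 0.98 on the log2 scale, and Eif2s1, the phosphorylated subunit of eIF2, by 0.98 and 0.92. In the ER, genes of protein entry and glycosylation were higher in 14 of 30 and lower in 3 of 30 in control offspring, and 13 and 2 in MIA offspring. Ssr3, a subunit of the translocon-associated complex, rose from 88.4 ± 10.5 to 220.4 ± 27.4 CPM in control offspring (SD, n = 6 and 5), while Tram1, a translocation factor, fell from 136.5 ± 13.1 to 92.2 ± 31.3 CPM (adjusted p = 0.00270, edgeR). Other folding genes were higher in 10 of 24 in control and 9 of 24 in MIA offspring, led by Wfs1 (1.67 and 1.34), an ER membrane protein, and the oxidase gene Ero1l (1.23 and 1.06). Other ERAD genes were higher in 7 of 19 and lower in 2 of 19 in control offspring, and 6 and 2 in MIA offspring. Selenos, a selenoprotein of the ERAD machinery, rose by 0.85 and 0.83 on the log2 scale. Genes of the mitochondrial unfolded protein response were higher in 6 of 9 and 3 of 9, with Hspd1 and Hspa9, the mitochondrial chaperones, among them at 1.12 and 0.89 in control and 1.10 in MIA offspring for each.

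The library order of the chaperones was also seen in some of these lists. The same 4 LPS libraries were highest in 9 of 20 tRNA synthetases, 9 of 24 other folding genes, 7 of 30 entry and glycosylation genes, 4 of 18 further ATF4 targets (Aldh18a1, Jdp2, Mthfd2 and Shmt2) and 2 of 19 other ERAD genes (Os9 and Rnf5), these 6 named after their values were seen. It was seen in 0 of 10 genes of the list of eIF2 kinases, phosphatase and eIF2B subunits and 0 of 9 mitochondrial genes. No listed gene had those libraries lowest, an order found in 2.81% of all genes.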

How the data were processed

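The authors' deposited table held estimated counts per gene for 21 libraries, not normalized. Per the labels' protocols, libraries came from 5 ng of RNA by a modified Smart-Seq2 protocol with 9 PCR cycles. The submitters' processing notes name DESeq2, RSEM and STAR. Their versions and the genome build, annotation and strand setting were not given in the sources used here. Identifiers were matched without version to GENCODE M21 (55141 of 55487). Of the values, 6.27% were not whole, and all were rounded. No replicate pair agreed within sampling noise (lowest ratio of chi-square to its degrees of freedom 9.58).

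edgeR 4.0.16 in R 4.3.3 (TMM, robust quasi-likelihood, 1 mean per group plus batch, 20 libraries, 15 residual degrees of freedom) tested 14741 genes past a minimum count of 10 and total of 15. Genes were called at 0.05 after Benjamini-Hochberg adjustment over all of them. Standard errors were back-calculated from the F statistic. In data simulated for LPS in control offspring (14396 genes run), 57.1% of 98 genes with 2-fold and 89.5% of 95 genes with 4-fold changes were recovered. In the real comparison 44.6% of genes were called, far more than were changed in the simulation. The adjusted p depends on that share, so these rates need not hold for the real data. Ratios of sparse genes have exact conditional intervals at 95%, which cover counting error only. The labels do not say that replicates are separate animals, so the p-values rest on a spread that may be technical. Named genes are the 34, and of each other list the 2 largest called rises and falls in control offspring at a mean log2 CPM of at least 3. Not all of these are described, and 1 is not reported here. The 34 genes and all lists were chosen with earlier results of these data known.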

Additional observations from a re-analysis of the deposited data

Results flagged for a closer look

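In 10 of 102 groups of 5 or 6 libraries checked, 1 library stood apart from the rest by Dixon's criterion. Chance meets it in about 1 in 20 groups of normally distributed values. Where all other libraries are at 0, as for Trib3 and Chac1 below, a single library above 0 always meets it, so the 2 rates cannot be compared. Of the ATF4 targets, Ddit3 was low in control saline replicate 3 (19.8 CPM). Trib3 was above 0 in control saline replicate 1 (0.113 CPM) and MIA saline replicate 5 (0.0666 CPM), and so was Chac1 (0.678 and 0.0666 CPM), all other saline libraries being at 0. The eIF2 phosphatase subunit gene Ppp1r15a was high in control LPS replicate 1 (146.5 CPM) and MIA saline replicate 2 (204.9 CPM). Of the ERAD genes, Sel1l was high in control LPS replicate 3 (112.5 CPM) and MIA saline replicate 1 (96.3 CPM), and Edem1 in control saline replicate 4 (359.5 CPM).

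Libraries outside the comparisons also held values beyond all 19 compared libraries. The batch 2 library, MIA LPS replicate 4, was above them all for Ern1 (41.7 CPM), Phgdh (149 CPM), Ddit4 (68.2 CPM) and Canx (428 CPM). It was below them all for 10 of the 34 genes. Atf4 (77.8 CPM), Xbp1 and the ATF4 targets Atf5, Ddit3, Asns and Ppp1r15a were among these 10. The others were the chaperone genes Hspa5 (320 CPM), Hsp90b1 and Creld2, and the ERAD gene Edem1. The batch 2 library had 12264 genes with a count, against 17995 to 19559 in the 19 libraries. The MIA saline library titled excluded was above them all for Derl3 (0.767 CPM).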

How the results depend on the processing

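In control offspring no other setting changed the 9 genes called higher by more than 1.5 times, and leaving out each library in turn gave 9 to 9. The count called lower, 0, was 1 with RLE scaling, upper quartile scaling, DESeq2, limma-voom sample weights, a minimum count of 30, the excluded library kept in, only the groups compared, or limma-voom with the label ID number as a random block, and 0 to 2 leaving out each library. It was 2 without control LPS replicate 3 and MIA LPS replicate 2 together, a setting chosen after seeing the data. The difference of medians between ATF4 targets and chaperones, 0.90, was 1.13 in that setting and 0.72 to 1.13 leaving out each library.

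In MIA offspring the chaperones called higher, 1, were 0 with RLE scaling, upper quartile scaling, no filter, the replicate block or the ID number block, 3 without those 2 libraries together, and 0 to 1 leaving out each library. The genes called lower, 1, were 0 with sample weights, only the groups compared, or without those 2 libraries, 2 with the replicate block, and 0 to 1 leaving out each library. ATF4 targets called higher, 5, were 3 with a minimum count of 30 or only the groups compared, and 3 to 5 leaving out each library. The difference of medians, 0.94, was 1.39 with no batch term, 1.31 with the replicate block, and 0.89 to 1.33 leaving out each library. In the main fit its ATF4 target side was the value of the sparse gene Atf5. The cause of these changes was not tested.

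Replicate numbers of the titles served as a block, although correlations of same-numbered libraries ran from -0.136 to 0.222 and the numbers did not pair them. The ID number block had a consensus correlation of 0.0839. Over all alternatives and genes, 5187 values kept their side and direction of a call or stayed uncalled, 52 lost a call, 26 gained one and 0 reversed. These totals pool all comparisons, so they do not give a rate of loss among calls. A call could be lost only for the 9 genes called in control offspring and the 10 higher and 1 lower in MIA offspring. Of the uncalled values, 401 changed sign. Sparse genes (Asns, Chac1, Trib3) are limited by depth.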
